A study of Mus musculus with 16 samples.

Results

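The 10 genes described here are those of the Myc and Max transcription factor network listed by symbol as Myc, Mycn, Mycl, Max, Mxd1, Mxd3, Mxd4, Mxi1, Mlx and Mnt. All 10 were found by symbol among the 20056 genes of the deposited table. They were listed by symbol and not by a cut on measured values, but earlier results of these data were known when they were chosen. RNA was sequenced from cells sorted as mesenchymal stem cells (MSCs) and cells sorted as osteoblasts (OBs), from wild-type mice and from mice in which the microRNA locus miR-9-1 had been removed by CRISPR/Cas9 editing. The 16 libraries formed 4 groups of 4, namely wild-type MSC, miR-9-1-deficient MSC, wild-type OB and miR-9-1-deficient OB. The labels carry 8 animal numbers, each on 1 MSC and 1 OB library, and a letter here stands for 1 such number in both cell types. The numbers were taken to name mice, with A to D wild-type and the deficient ones E to H, although the labels do not say that both libraries came from 1 mouse. The labels used here give no strain, age, sex or sorting gate, and name no treatment.

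Max is the shared partner of the network. Myc, Mycn and Mycl pair with Max, bind the E-box sequence CACGTG and mostly raise transcription of genes for growth and ribosome production. The Mxd proteins, Mxi1 and Mnt pair with Max at the same sequence and recruit the Sin3 co-repressor, while Mlx is the Max-like partner of the glucose-responsive factors MondoA (gene Mlxip) and ChREBP (gene Mlxipl). In bone marrow, Myc levels are known to matter for the balance of self-renewal and differentiation of blood stem cells, and Myc transcripts turn over fast and respond quickly to stress and growth signals.

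Values are normalized counts, which are read counts divided by 1 scale factor per library. The depth was 10148197 to 14246986 reads per MSC library and 15543693 to 18962771 per OB library, so a gene with 0 reads could still be present at up to 3.52 to 4.51 normalized counts in MSC and 1.95 to 2.36 in OB libraries (3 reads at 95% confidence, counting error only). The labelled cell types were checked against marker genes. Of 12 markers of marrow stroma, 11 were lower in wild-type OB than in wild-type MSC libraries and 1 was higher. Of 12 osteoblast markers, 8 were lower in wild-type OB libraries and 0 were higher, while 2 of the 12 had a difference above 0 that did not pass. Their summed level was 174265 to 375898 against 1188540 to 1583940 in wild-type MSC libraries. Most of that sum is from the collagen genes Col1a1 and Col1a2, so it is not a level of all 12. Over all genes, 34.4% were higher and 35.5% lower in wild-type OB libraries. In the same comparison, 9 of 10 blood progenitor markers and 10 of 10 erythroid markers were higher in OB libraries, where the progenitor markers summed to 25112 to 27701 against 6034 to 11248. The OB label therefore goes against most of these markers, and "OB" below means only the sorted fraction so labelled. Every OB library also held reads of both the female-specific Xist (5063 to 12053 reads) and the Y-linked Ddx3y (902 to 2639 reads). It is thus not established that an OB library came from 1 mouse, and p-values measure only the spread between these libraries. In MSC libraries Xist ranged from 210 to 9337 reads in wild-type and from 254 to 9689 in deficient mice. Ddx3y ranged there from 23 to 1727 and from 32 to 2858 reads. The part of sex in the genotype differences was not tested. Among MSC libraries, the 11 skeletal muscle markers summed to 1731 in deficient mouse G and 6044 in H against 260.0 to 627.9 in wild-type libraries. Among OB libraries, the stroma markers summed to 23701 in deficient mouse E and 42088 in F against 6723 to 11519 in wild-type libraries.

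The sequence that links the deleted locus to the network is the seed of its main product, shown here because it defines which transcripts could carry a match. The mature microRNA comes from chr3:88215613-88215635 (plus strand, GRCm38.p6, RefSeq). Other miR-9 loci in the genome are known to make the same mature microRNA. The capitals mark bases 2 to 8, the seed.
miR-9-5p: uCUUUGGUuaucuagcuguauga
For each gene, its longest 3′ UTR in the annotation was searched for a match to the seed. Of the 10 network genes, 4 held at least 1 match (Mxd1, Mxd3, Mxi1 and Mnt), which is 40% against 21.66% of 16682 genes of the table with a searchable 3′ UTR. The median 3′ UTR of the 10 genes was also longer, at 1634 bases against 1049. Myc, with a 3′ UTR of 466 bases, held 0 matches. All 4 genes with a match encode proteins that oppose Myc at E-boxes. Of the 3 further genes of the network outside the 10, Mga held 2 matches, Mlxip held 1 and Mlxipl held 0. The sites below are written as DNA from the GENCODE transcripts, with the bases that pair with the microRNA, and the A opposite its first base where present, in capitals.
Mxd1 site: tcgtggatggCCAAAGAaattgactgt
Mxd3 site: cctgattcaaACCAAAGctatctgact
Mxi1 site: ctgtttatatACCAAAGgagcctgaca
Mnt site 1: tcccttggggCCAAAGAagggcagggg
Mnt site 2: ctcccaatccCCAAAGAggtggccctt
Mlxip site: cagttctcagACCAAAGAtgtcatcata
The Mlxip site is the only one among these 6 that pairs over bases 2 to 8 and also has the A. A match is a description of these letters and does not show that the microRNA acts there.

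The E-box that these factors bind is itself present in the promoters of some of the network genes, from 250 bases before to 50 bases after the start site. The search was for CACGTG, which reads the same on both strands. Myc had no promoter entry in the reference used and was not searched. Of the 9 network genes with a promoter entry, 4 held it (Max, Mxd4, Mlx and Mnt), which is 44.44% against 10.24% of 14167 genes of the table. Mlxipl held it as well. The lines below give 30 bases around each E-box, 5′ to 3′ on the gene's strand, from RefSeq on GRCm38.p6, with the E-box in capitals.
Max, chr12:76962234-76962263 (minus): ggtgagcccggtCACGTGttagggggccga
Mxd4, chr5:34187912-34187941 (minus): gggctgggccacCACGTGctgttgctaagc
Mlx, chr11:101087238-101087267 (plus): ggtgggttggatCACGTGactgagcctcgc
Mnt, chr11:74830789-74830818 (plus): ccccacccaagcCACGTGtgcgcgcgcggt
Mlxipl, chr5:135089780-135089809 (plus): gcggctgccatcCACGTGctaaggagagaa
The first base of the E-box lay 3 bases before the start site in Max and 219 before it in Mxd4. Of the 4 genes, Mxd4 and Mlx were lower and Mnt was higher in wild-type OB than in wild-type MSC libraries by limma. Max did not pass by limma, but passed as higher by edgeR and after quantile normalization. The part of the E-boxes in these differences was not tested.

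Myc (chromosome 15, 61985391 to 61990374, plus strand, GRCm38) was the most abundant of the 10 genes per length in all 4 groups. Its level per kb of annotated exon was 1117 ± 222 (SD, n = 4) in wild-type MSC, 2367 ± 450 in deficient MSC, 518 ± 55.6 in wild-type OB and 697 ± 259 in deficient OB libraries. Max, the common partner, ranked 2 or 3 in each group, at 323 ± 40.4, 372 ± 93.1, 375 ± 22.7 and 384 ± 13.4 normalized counts per kb in the same order. In wild-type MSC libraries the repressor Mxd1 (342 ± 113) ranked just above Max per kb, with a difference smaller than the spread. Mnt (176 ± 14.4), Mxi1 (175 ± 21.8) and Mlx (162 ± 22.5) came next per kb and did not differ beyond their spread. Mxd4 (130 ± 11.7), Mxd3 (49.8 ± 17.7) and Mycn (17.0 ± 6.08) were lower per kb. Mycl was the lowest of the 10 per kb in every group, from 1.47 ± 0.848 in wild-type OB to 7.98 ± 8.70 in wild-type MSC libraries.

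**Figure D1:**
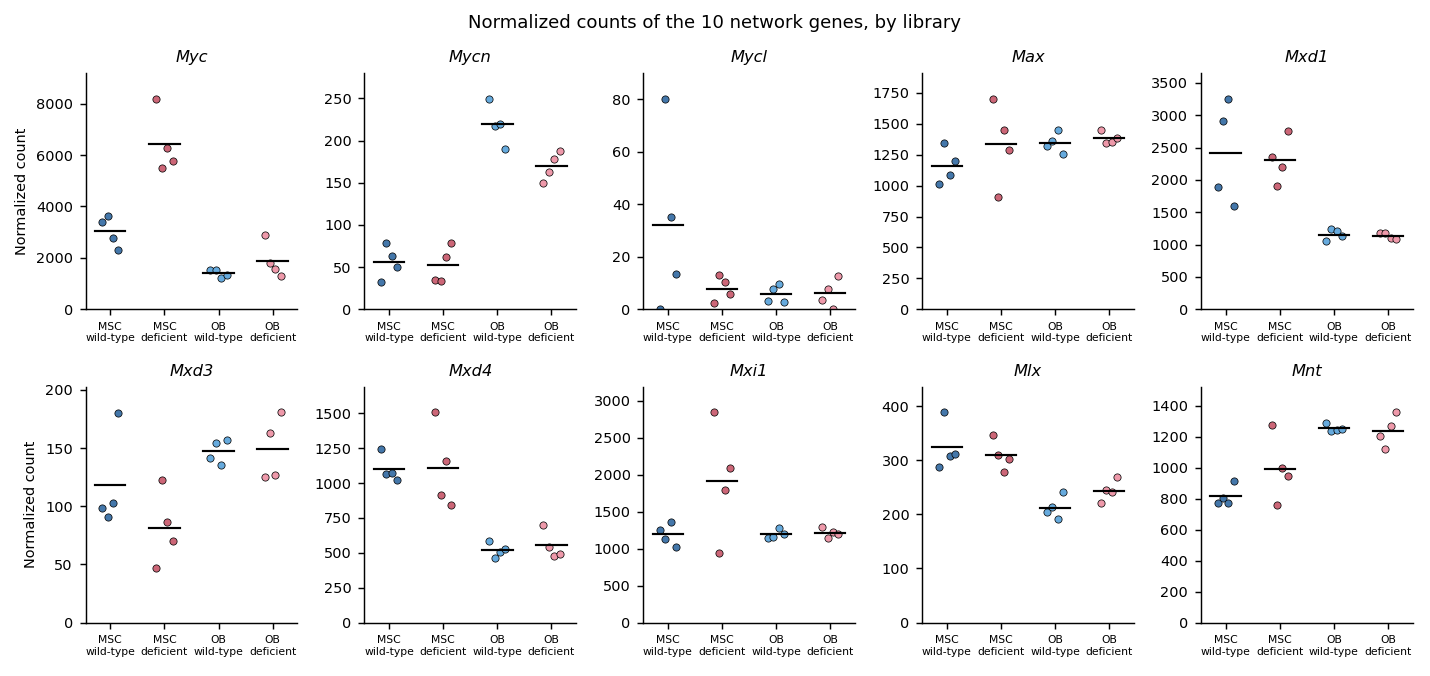
Normalized counts of the 10 network genes (vertical axes, each starting at 0) in the 4 groups of 4 libraries. Points are libraries in the order of the mouse letters and lines are group means. Myc in the 4 deficient MSC libraries (5500 to 8204) lies above all 4 wild-type ones (2319 to 3644).

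The first comparison asked what loss of miR-9-1 went with in MSC libraries. Myc was higher in the deficient mice, and it was the only 1 of the 10 genes that passed the test. In wild-type MSC libraries Myc was at 3404 (A), 3644 (B), 2776 (C) and 2319 (D) normalized counts. In the deficient ones it was at 8204 (E), 5500 (F), 6259 (G) and 5764 (H). The lowest deficient library was above the highest wild-type one, and mouse E was the highest of all 16 libraries. Myc rose by 1.09 ± 0.18 (log2, SE), which is 2.12-fold, with an adjusted p of 0.0270 by limma. Over all 14964 genes tested in MSC libraries, 1.06% passed in either direction and 0.501% as higher. Groups that do not overlap with the deficient libraries higher were found for 6.30% of all genes and for 1 of the 10, Myc. The Myc call depended on which libraries entered. It held without mouse F (1.16, adjusted p 0.00381) and was lost when any 1 of A, B, C, D, E, G or H was left out, with differences from 0.96 to 1.18 and adjusted p from 0.0523 to 0.0938. Without the muscle-high mice G and H together, the difference was 1.17 (adjusted p 0.256). By DESeq2 on recovered reads the difference was 1.11 (adjusted p 1.24e-05), and by edgeR's quasi-likelihood test 1.10 (adjusted p 0.0364).

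Myc is itself an early response gene, so 24 immediate early genes, which are induced within minutes of a stimulus, were read beside it. Their summed level was 384238 to 438942 in wild-type and 492374 to 545277 in deficient MSC libraries, and the groups did not overlap. In the limma test 0 of the 24 passed (0 by edgeR), while 10 were higher and 1 lower at an unadjusted p under 0.05, against 10.7% and 12.1% of all genes. By DESeq2, 9 of the 24 were higher and 0 lower, while 1180 of all 14964 genes passed by it, 56.9% of them as higher. Their median difference was 0.28 against -0.03 for all genes tested. Egr2, a zinc finger factor, was 0.51 ± 0.12 higher on the log2 scale (adjusted p 0.0608 by limma), and Ier3, a survival factor, 0.62 ± 0.14 (adjusted p 0.0611). The part of these genes in the Myc difference was not tested. Of the osteoblast markers, 2 of 12 were lower and 0 higher in this comparison, and of the B lineage markers tested, 3 of 9 were lower and 0 higher. Over all genes, 1.06% passed in either direction and 0.501% as higher. Vpreb3 of the B lineage list held 17 to 59 reads in wild-type and 0 to 3 in deficient MSC libraries. It met the filter of 10 only through the wild-type libraries. The part of these 2 marker lists in the Myc difference was not tested either.

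Among the other Myc proteins, Mycn (chromosome 12, 12936093 to 12941914, minus strand), the form best known from developing tissue, overlapped between the genotypes. It was at 31.9, 79.0, 63.5 and 49.6 normalized counts in wild-type MSC libraries A to D and at 35.2, 33.5, 61.4 and 78.9 in deficient libraries E to H, with a difference of -0.12 ± 0.44 (log2, SE, adjusted p 0.897 by limma). Mycl (chromosome 4, 122995652 to 123002485, plus strand) ranged from 0 in A to 80.3 in B among wild-type MSC libraries and from 2.35 to 12.9 among deficient ones. Its difference of -0.89 ± 1.28 on the log2 scale had an interval from -3.69 to 1.91, so neither a large fall nor a large rise is left out by these libraries. Max (chromosome 12, 76937269 to 76962201, minus strand) was at 1013 to 1348 in wild-type and 906.0 to 1704 in deficient MSC libraries. Its difference was 0.17 ± 0.19 with an interval from -0.24 to 0.59, which does not reach the difference of Myc.

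The repressors were more varied. Mxi1 (chromosome 19, 53310518 to 53375810, plus strand), a Max partner that recruits Sin3, had the largest increase among them, but 1 library went the other way. It was at 1257, 1134, 1364 and 1020 in wild-type MSC libraries A to D and at 2851 (E), 937 (F), 1787 (G) and 2090 (H) in deficient ones. Mouse F was thus below all 4 wild-type libraries and the other 3 were above them. The difference was 0.58 ± 0.28 (adjusted p 0.237 by limma), and without mouse F it was 0.89 (adjusted p 0.00862). Mnt (chromosome 11, 74830920 to 74845725, plus strand), the repressor most widely present in growing and resting cells, was at 770, 804, 770 and 911 in wild-type and 1277, 756, 996 and 944 in deficient MSC libraries. Its difference was 0.27 ± 0.16 on the log2 scale (adjusted p 0.360 by limma), and F was again the lowest library.

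Mxd1 (chromosome 6, 86647042 to 86669161, minus strand), a repressor induced as cells differentiate, spread more within genotypes than between them, from 1594 to 3259 in wild-type and from 1902 to 2754 in deficient MSC libraries. Its difference was -0.02 ± 0.22 on the log2 scale. Mxd1 was at 1894, 2916, 3259 and 1594 in A to D and at 2362, 1902, 2203 and 2754 in E to H. The 10 neutrophil markers summed to 54590, 121819, 109704 and 29378 in MSC libraries A to D. They summed to 31225, 48263, 35074 and 63473.5 in E to H. Their part in the Mxd1 values was not tested. Mxd4 (chromosome 5, 34173883 to 34187720, minus strand) was at 1023 to 1248 and 846.0 to 1511, with a difference of -0.03 ± 0.18. Mxd3 (chromosome 13, 55325168 to 55329823, minus strand), which unlike its relatives is expressed in dividing cells, was at 90.6 to 180 and 47.0 to 122, with a difference of -0.56 ± 0.36 (adjusted p 0.384 by limma). It shares 105 exonic bases with Prelid1 on the other strand, and counting by strand is not given in the sources used here, so reads there cannot be told apart. Mlx (chromosome 11, 101087277 to 101092207, plus strand) was at 287 to 390 and 278 to 346, with a difference of -0.06 ± 0.17, and shares 385 exonic bases (19.3% of its exons) with Psmc3ip in the same way. The sign of the difference of Mxd4, Mlx and Mycn in MSC libraries changed under other scalings, and that of Mxd1 when 1 library was left out, so these 4 have no direction here.

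The partners of Mlx were read as further network genes. Mlxip (chromosome 5, 123394798 to 123457932, plus strand), which encodes MondoA, was at 1657, 1524, 1628 and 1573 in wild-type MSC libraries and at 5331 (E), 2148 (F), 2618 (G) and 3140 (H) in deficient ones. All 4 deficient libraries lay above all 4 wild-type ones, and the difference was 0.97 ± 0.23 on the log2 scale with an adjusted p of 0.0640 by limma. By DESeq2 the adjusted p was 0.00204, and without mouse F limma gave 0.00651. Mlxipl (chromosome 5, 135089890 to 135138382, plus strand), which encodes ChREBP, was low and ranged from 20.6 to 181 in deficient against 27.2 to 36.1 in wild-type MSC libraries (1.11 ± 0.60, adjusted p 0.296 by limma). Mga (chromosome 2, 119897228 to 119969581, plus strand), a Max partner of a Polycomb complex, was 0.32 ± 0.15 higher on the log2 scale (adjusted p 0.251 by limma), with overlapping groups.

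**Figure D2:**
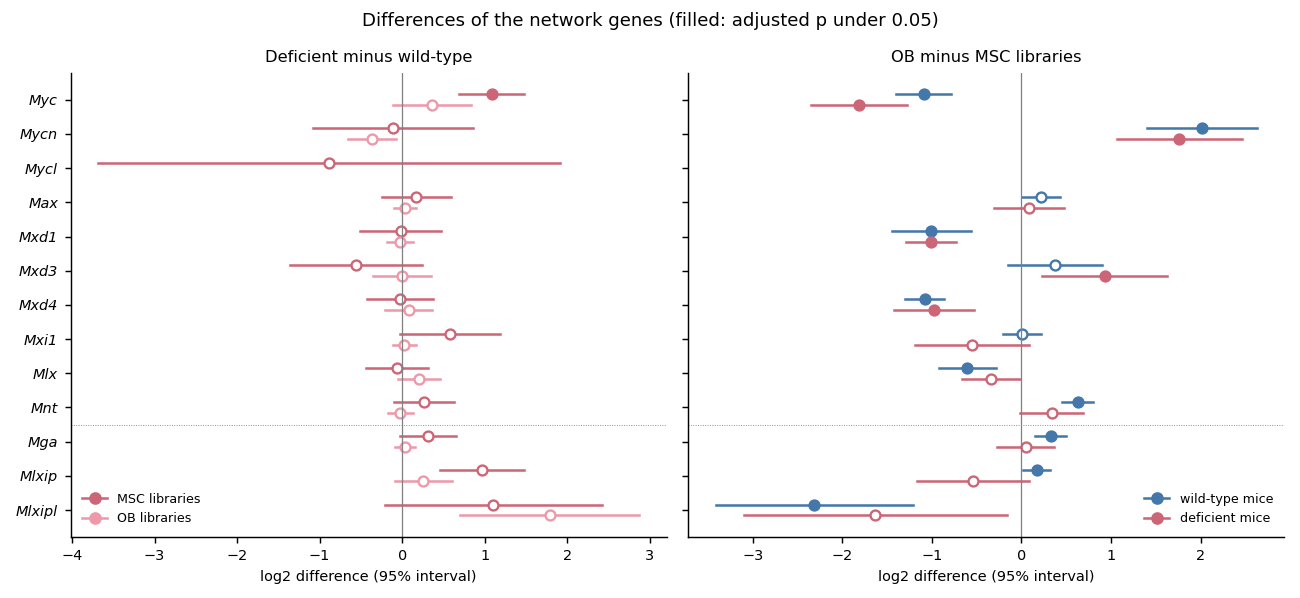
Log2 differences (horizontal axes) with 95% intervals for the 10 network genes and, below the dotted line, the 3 further genes. The left panel gives deficient minus wild-type and the right panel OB minus MSC. Filled points passed at an adjusted p under 0.05. Myc in MSC libraries (1.09) is the only filled point on the left, and 9 of the 10 genes have points on the right because Mycl was too low to test there.

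Targets of the network were read from lists. Of 5 genes known as targets of MondoA and Mlx, 2 were higher in deficient MSC libraries and 0 were lower, with a median difference of 1.01 against -0.03 for all genes. Txnip, which encodes a brake on glucose uptake, was at 6283, 6069, 6436 and 3697 in wild-type libraries A to D and at 31425, 10708, 28690 and 31521 in deficient libraries E to H. Mouse F was again the lowest of the deficient libraries, yet above every wild-type one. Txnip rose by 2.10 ± 0.33 on the log2 scale (adjusted p 0.0268 by limma), and Arrdc3, another arrestin-fold gene, rose by 1.17 ± 0.22 (adjusted p 0.0373). Both calls, and those of Nop58 and Ndrg1 below, were lost when any 1 library other than F was left out, and without G and H together (Txnip 1.74, adjusted p 0.256).

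Of 60 genes that Myc is known to activate, mostly for ribosome assembly, nucleotide synthesis and protein folding, 1 was higher and 0 were lower in deficient MSC libraries, with a median difference of 0.10 against -0.03 for all genes. By DESeq2 4 were higher and 2 lower, and with all 16 libraries in 1 fit 12 were higher and 6 lower. These settings call more genes in general. Of all genes, 159 of 14964 passed by limma and 1180 of 14964 by DESeq2 (56.9% of these higher). With all 16 libraries in 1 fit, 2246 of 15556 passed (49.6% of these higher). This is the background of such counts for each list in this paragraph. The gene that passed by limma was Nop58, a core protein of the particles that modify ribosomal RNA, which was at 1681 to 2075 in wild-type and 2643 to 5053 in deficient MSC libraries (0.92 ± 0.18, adjusted p 0.0410 by limma). At an unadjusted p under 0.05, 13 of the 60 were higher and 6 lower, against 10.7% and 12.1% of all genes. Of 15 genes that Myc is known to repress, 1 was higher and 0 were lower in the deficient libraries, while 4 were higher and 1 lower by DESeq2 and 4 and 0 with all 16 libraries in 1 fit. The 1 by limma was Ndrg1, a differentiation and stress response gene, which rose by 0.81 ± 0.14 (adjusted p 0.0285 by limma). None of the 14 co-activators, 13 co-repressors and 18 genes of Myc protein turnover passed (0 calls by limma, with 2, 3 and 2 at an unadjusted p under 0.05, 0, 0 and 1 by DESeq2, and 2, 2 and 2 with all 16 libraries in 1 fit).

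**Figure D3:**
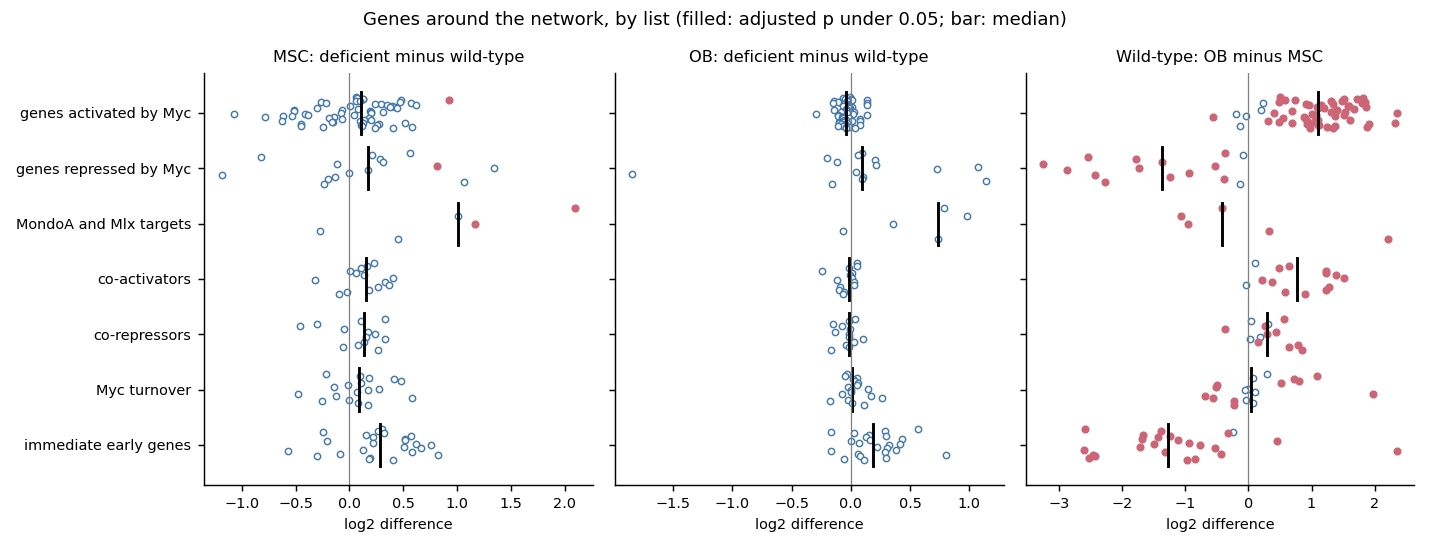
Log2 differences (horizontal axes) of genes around the network, 1 point per gene, for deficient minus wild-type in MSC and in OB libraries and for OB minus MSC in wild-type mice. Bars are list medians and filled points passed at an adjusted p under 0.05. Of the 60 genes activated by Myc, 1 is filled in the first panel, 0 in the second and 55 in the third.

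The second comparison asked the same of the OB libraries, where none of the 9 network genes tested passed by limma (0 by edgeR and 0 by DESeq2). Over all 14229 genes tested, 0.0281% passed and 8.95% had an unadjusted p under 0.05. At that unadjusted p, 1 of the 9 was lower, Mycn. It was at 250 (A), 217 (B), 220 (C) and 189 (D) in wild-type OB libraries and at 150 (E), 163 (F), 178 (G) and 187 (H) in deficient ones. The groups did not overlap, by a narrow margin between D and H, a pattern that 2.99% of all genes showed in this direction. The difference was -0.37 ± 0.13 on the log2 scale, with an adjusted p of 0.429 by limma.

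Myc in wild-type OB libraries was at 1530, 1533, 1226 and 1341 normalized counts. In deficient ones it was at 2900 (E), 1815 (F), 1573 (G) and 1291 (H). Mouse E was within the range of the wild-type MSC libraries, and H was inside the wild-type OB range. E and F are also the OB libraries with the high stroma markers. The difference was 0.37 ± 0.21 (log2, SE) with an interval from -0.11 to 0.84 and an adjusted p of 0.630 by limma, and without E and F it was 0.02. The part of stroma RNA in these values was not tested.

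The other network genes were close between the genotypes in OB libraries. Max was at 1254 to 1450 in wild-type and 1341 to 1450 in deficient libraries, with a difference of 0.04 ± 0.06 and an interval from -0.10 to 0.17 on the log2 scale. The 3 repressors Mxd1, Mxi1 and Mnt differed by -0.02 ± 0.07, 0.02 ± 0.06 and -0.02 ± 0.07, each with an interval within -0.18 to 0.16. Mxd3 (0.00 ± 0.16) and Mxd4 (0.08 ± 0.13) were measured less tightly. Mlx was 0.20 ± 0.11 higher on the log2 scale (adjusted p 0.625 by limma), with values of 191 to 241 and 222 to 268. Mycl, at 0 to 12.8 normalized counts, was too low to test.

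Of the further genes, Mlxipl was the lowest in OB libraries. It was at 7.07, 4.55, 9.04 and 2.94 in wild-type and at 42.6, 13.7, 19.7 and 18.0 in deficient libraries. The difference of 1.79 ± 0.48 had an adjusted p of 0.310 by limma, and the wild-type values rest on 4 to 12 reads. Mlxipl met the filter of 10 only through the deficient libraries, where it is high, so this difference is given as a description only. Mlxip was at 1690 to 1911 in wild-type and 1763 to 3118 in deficient OB libraries, with mouse E the highest and F, G and H at 1763 to 1999. None of the target, cofactor, turnover or immediate early lists held a gene that passed in OB libraries by limma or by edgeR. At an unadjusted p under 0.05 there were 3 of the 5 MondoA targets, 3 of 14 repressed genes, 2 of the 60 activated genes, and 1 each of the co-activators, co-repressors, turnover and immediate early genes. Txnip was nearest, at 3830 to 4379 in wild-type and 5975 to 9952 in deficient libraries (0.79 ± 0.15, adjusted p 0.125 by limma). Txnip passed by DESeq2 (0.85, adjusted p 0.00993) and by limma without E and F (0.66, adjusted p 0.00909), without E (0.62, adjusted p 0.0298) or without H (0.87, adjusted p 0.0366). The 60 genes activated by Myc had a median difference of -0.04 against -0.02 for all genes, with 15 above 0 and 45 below. Without E and F the median was 0.04 against 0.01, with 41 above 0 and 19 below, so the list has no direction here.

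Whether the genotype difference itself differed between OB and MSC libraries was tested over all 16. None of the 10 genes passed by limma (0 by edgeR, 0 by DESeq2), against 0.0129% of 15556 genes, and 1 of the 10, Myc, had an unadjusted p under 0.05, against 11.5% of all genes. For Myc the genotype difference in OB minus that in MSC libraries was -0.72 ± 0.29 on the log2 scale, with an adjusted p of 0.379. Mxi1 (-0.56 ± 0.32), Mxd3 (0.56 ± 0.40) and Mlxip (-0.71 ± 0.30) had adjusted p of 0.512, 0.605 and 0.391 by limma. Without mouse F in MSC libraries, Mxi1 passed at -0.87 (adjusted p 0.0226). The call of Myc in MSC and not in OB libraries thus does not show that the 2 fractions differ.

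The largest differences in the network were between the cell fractions, where 69.9% of all 14696 genes passed in wild-type mice (34.4% higher and 35.5% lower in OB). Of the 9 network genes tested, 6 passed, with Mycn and Mnt higher and Myc, Mxd1, Mxd4 and Mlx lower in OB libraries. A share of 6 in 9 is close to that background and is not a result about the network. In bulk samples, fewer cells of a type and less RNA per cell cannot be told apart. The OB libraries differ from the MSC libraries in the blood progenitor, erythroid and stroma markers given above. Of the 10 neutrophil markers, 7 were lower and 1 was higher in wild-type OB libraries. They summed to 11086.5 to 31593 there, against 29378 to 121819 in wild-type MSC libraries. The part of cell makeup in the differences of the network genes was not tested.

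Among the Myc genes, Myc was lower and Mycn higher in OB libraries. Myc was at 1226 to 1533 in wild-type OB against 2319 to 3644 in wild-type MSC libraries, and fell by 1.09 on the log2 scale (SE 0.14, adjusted p 3.7e-05 by limma). Mycn was at 189 to 250 against 31.9 to 79.0, and rose by 2.02 ± 0.28 (adjusted p 7.2e-05), which is 4.05-fold. Even so, Mycn made up 11.4% ± 1.18 (SD, n = 4) of the summed per-kb level of the 3 Myc genes in wild-type OB libraries, against 1.51% ± 0.501 in wild-type MSC. In deficient mice the OB minus MSC difference was -1.81 ± 0.24 for Myc on the log2 scale (adjusted p 2.02e-04) and 1.76 ± 0.31 for Mycn (adjusted p 0.00105). The deficient MSC libraries enter both this comparison and the genotype comparison of MSC libraries, so the Myc differences in them are not separate observations.

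Among the repressors, Mxd1 and Mxd4 were lower in OB libraries by about 2-fold in both genotypes. Mxd1 was at 1049 to 1236 in wild-type OB against 1594 to 3259 in wild-type MSC libraries, a fold of 0.498 (log2 difference -1.01 ± 0.20, adjusted p 9.67e-04 by limma). Mxd4 was at 466 to 583 against 1023 to 1248, a fold of 0.473 (-1.08 ± 0.10, adjusted p 3e-06). Both groups of libraries were apart in each gene. Mnt went the other way, at 1233 to 1286 in wild-type OB against 769.5 to 910.7 in wild-type MSC libraries (0.63 ± 0.08, adjusted p 3.5e-05). In deficient mice the Mnt difference was 0.34 ± 0.16 and did not pass (adjusted p 0.0874 by limma). Mxi1 was level in wild-type mice, at 1145 to 1272 against 1020 to 1364, with a difference of 0.01 ± 0.10 and an interval from -0.21 to 0.22.

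Mxd3 was higher in OB libraries of deficient mice, at 125 to 181 against 47.0 to 122 (0.93 ± 0.31, adjusted p 0.0268 by limma), a call lost without H of the MSC or F or H of the OB libraries (adjusted p 0.0556, 0.0660 and 0.0731). In wild-type mice the difference of Mxd3 was 0.37 ± 0.24 (adjusted p 0.186). It was 0.59 (adjusted p 0.0137) without MSC library D, which at 180 stood apart from the other 3. Mlx was lower in wild-type OB libraries, at 191 to 241 against 287 to 390 (-0.60 ± 0.14, adjusted p 0.00319). Max was at 1254 to 1450 against 1013 to 1348 and did not pass (0.22 ± 0.10, adjusted p 0.0635), but it did by edgeR (0.26, adjusted p 0.0351) and after quantile normalization (0.32, adjusted p 0.0111). In deficient mice 5 of the 9 genes passed (Myc, Mxd1 and Mxd4 lower, Mycn and Mxd3 higher), against 59.6% of 14692 genes. With the mouse as a replicate block, Mxi1 passed too, as lower in OB libraries (-0.55, adjusted p 0.0493).

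Of the further genes, Mga (0.33 ± 0.08, adjusted p 0.00360 by limma) and Mlxip (0.17 ± 0.07, adjusted p 0.0434) were higher and Mlxipl (-2.32 ± 0.50, adjusted p 0.00167) was lower in wild-type OB libraries. Mlxipl was at 2.94 to 9.04 there and at 27.2 to 36.1 in wild-type MSC libraries. It met the filter of 10 only through the MSC libraries, where it is high, so its call is given as a description only. The Mlxip call did not hold with the mouse as a replicate block (adjusted p 0.0622), without a filter on low values (adjusted p 0.0541), or without any 1 of MSC libraries B and D and OB libraries A, B and C. In deficient mice none of the 3 passed (0 by limma, with 1 at an unadjusted p under 0.05, and 1 by edgeR and 1 by DESeq2). With the replicate block, Mlxip (-0.54, adjusted p 0.00634) and Mlxipl (-1.63, adjusted p 0.0217) passed as lower in deficient OB libraries.

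Most genes known to be activated by Myc were higher in OB libraries, where Myc itself was lower. Of the 60, 54 were higher and 1 lower in wild-type OB libraries, with a median difference of 1.10 against 0.01 for all genes. Over all genes, 34.4% were higher and 35.5% lower, which is the background of each list in this and the next paragraph. Npm1, the nucleolar protein nucleophosmin, was at 9340 to 10062 in wild-type OB against 3199 to 3432 in wild-type MSC libraries, and Ncl, nucleolin, at 31888 to 33802 against 8509 to 10515. They rose by 1.51 ± 0.06 and 1.81 ± 0.09 on the log2 scale (adjusted p 1.02e-08 and 2.51e-08 by limma). The exception was Ccnd2, the cell cycle driver cyclin D2, which fell by 0.55 (SE 0.10, adjusted p 6.4e-04). Of the 15 genes repressed by Myc, 13 were lower and 0 higher, with a median of -1.36. They include Gas1 (-3.25 ± 0.15), a growth arrest gene, and Thbs1 (-2.27 ± 0.12), a matrix protein gene. Col1a2 of this list is also in the list of osteoblast markers, and Tfrc of the activated genes is in the erythroid list.

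Further lists were read in the same comparison. Of 24 immediate early genes, 21 were lower and 2 higher in wild-type OB libraries, where the list summed to 135833 to 153770 against 384238 to 438942 in MSC libraries. Fos fell by 2.58 on the log2 scale (SE 0.10, adjusted p 6.42e-09 by limma), while Dusp2, a phosphatase of immune cells, rose by 2.35 ± 0.17. After quantile normalization 15 of the 24 were lower and 3 higher. Of 14 co-activators, 12 were higher and 0 lower, led by Wdr5 (1.51 ± 0.10), a chromatin adaptor of Myc. Of 13 co-repressors 8 were higher and 1 lower, but 5 and 0 without a filter on low values and 6 and 1 with the replicate block. Of 18 turnover genes 5 were higher and 6 lower, shares below those of all genes, and 8 and 4 after quantile normalization, so this is not a result about that list. The mitotic kinase gene Aurka, whose product shields Mycn protein, rose by 1.98 ± 0.22 (adjusted p 1.34e-05), and Gsk3b, a kinase that marks Myc for decay, fell by 0.52 (SE 0.08, adjusted p 2.11e-04). Of the 5 MondoA targets, Pklr and Klf10 were higher and Arrdc3, Arrdc4 and Txnip lower in OB libraries of both genotypes. The calls of Klf10 were weak. With 1 library left out they held in 2 of 8 settings in wild-type and 1 of 8 in deficient mice, and they were lost without a filter (adjusted p 0.0538 and 0.0543) and, in deficient mice, by DESeq2 (adjusted p 0.0600). Txnip in wild-type mice held in 2 of 8 settings and did not pass after quantile normalization (-0.089, adjusted p 0.619). In deficient mice Arrdc4 held in 4 of 8 and was lost by edgeR (adjusted p 0.0777), and Pklr held in 5 of 8. In deficient mice 29.0% of all genes were higher and 30.6% lower in OB libraries, and the list counts were 51 higher and 0 lower of the 60 activated genes, 0 and 12 of the 15 repressed genes, and 2 and 20 of the 24 immediate early genes.

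The balance of the network was described by the summed per-kb levels of Myc, Mycn and Mycl over those of Mxd1, Mxd3, Mxd4, Mxi1 and Mnt. The ratio was 1.56, 1.51, 1.05 and 1.13 in wild-type MSC libraries A to D. It was 2.47, 2.79, 2.42 and 2.09 in deficient MSC libraries E to H. In OB libraries it was 0.886, 0.865, 0.701 and 0.752 in wild-type and 1.48, 1.02, 0.881 and 0.706 in deficient mice. All 4 deficient MSC libraries were above all others, and the wild-type OB libraries were all below 1. The ratio carries the Myc difference above and is given as a description, with no test. The sum of the repressors itself was 872 ± 104 (SD, n = 4) normalized counts per kb in wild-type and 986 ± 205 in deficient MSC libraries, and 733 ± 8.38 and 734 ± 24.6 in OB libraries. Myc alone exceeded Max per kb by 3.49-fold ± 0.775 in wild-type MSC, 6.51 ± 1.05 in deficient MSC, 1.39 ± 0.186 in wild-type OB and 1.80 ± 0.607 in deficient OB libraries.

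**Figure D4:**
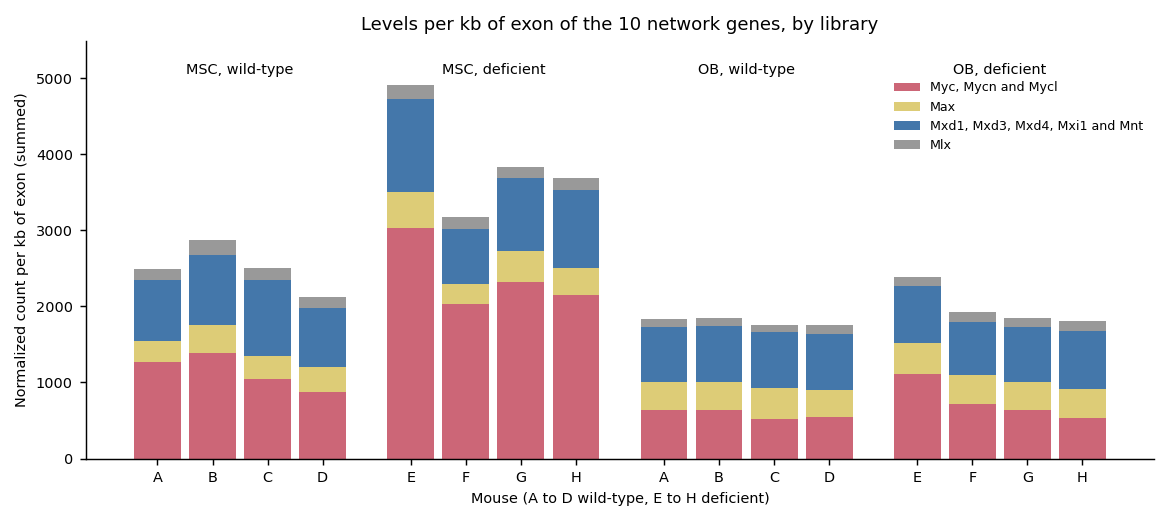
Summed normalized counts per kb of exon (vertical axis, from 0) of the network genes in each library, split into Myc genes, Max, the repressors and Mlx. Mouse E is the highest library of both deficient groups. The Myc share is 58.3 to 64.2% in deficient MSC libraries and 29.5 to 34.9% in wild-type OB libraries.

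By the median over genes, spread was largest in the deficient MSC libraries. The median coefficient of variation of the 9 genes other than Mycl was 25.1% in deficient MSC, against 13.9% in wild-type MSC, 7.32% in wild-type OB and 8.07% in deficient OB libraries. Myc, Mxd1 and Mlx went the other way. Myc was at 19.0% in deficient MSC, 19.8% in wild-type MSC and 37.1% in deficient OB libraries. Mxd1 was at 15.4% in deficient and 33.0% in wild-type MSC libraries, and Mlx at 9.08% and 13.9%. Mouse E was the highest library of its group for 6 of the 10 genes and mouse F the lowest for 6. In deficient OB libraries E and H were each the highest for 5 of the 10. The same measures were not computed over all genes, so these values do not show a trait of the network.

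Genes whose levels followed Myc most closely over the 16 libraries were Mylip (Pearson r 0.983), Ier5 (0.983), Dnaja1 (0.980), Mt1 (0.980) and Sgk1 (0.979), out of 12571 genes with a mean of at least 50 normalized counts. The 16 libraries share 4 groups and 8 mice, so this likeness mostly follows the group means. After the group means were subtracted, Nfil3 (0.966), Sgk1 (0.959), Ptpru (0.955), Dhrs7 (0.938) and Mt2 (0.930) were closest. Sgk1, the serum- and glucocorticoid-regulated kinase, is in both sets. Its mean was 9648 in wild-type MSC, 18856 in deficient MSC, 2275 in wild-type OB and 3694 in deficient OB libraries. Among the network genes, Mxd4 (0.732) and Mxd3 (-0.645) were the closest to Myc within groups in size of r, and Max had an r of 0.358. These are descriptions over 16 libraries.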

How the data were processed

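The deposited table gives 1 normalized signal value per gene symbol and library. Per the submitters' processing notes, the authors used DESeq2 1.24.0 and mm10; no aligner or counter is named there. Every value was a whole multiple of 1 step per library, so the authors' signal values are counts divided by a scale factor, and 100% were whole within 0.01 after multiplying back. Per the labels' protocols, poly(A) RNA was prepared with a NEBNext Ultra kit.

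Values were tested as log2(normalized count + 1) with limma 3.58.1 in R 4.3.3 (empirical Bayes with trend). Genes entered when 4 or more fitted libraries reached 10, and p-values were adjusted over all genes entered (Benjamini-Hochberg, threshold 0.05). Differences are on that scale, which understates changes of low genes. Alternatives were quantile normalization, a pseudocount of 5, a filter of 50 or none, edgeR 4.0.16 and DESeq2 1.42.0 on recovered reads, all 16 libraries together, the mouse as replicate block, and libraries left out. Code was tested on simulated data. Animal numbers were taken to name mice: deviations of the MSC and OB library of a number correlated at 0.0822 to 0.416 over 12580 genes, and 8 of 8 correlated best with their own. The network genes and lists were chosen with earlier results of these data known. Named genes are the 10, the 3 further genes, per list and direction up to 4 passing genes with the smallest p (or up to 2 where none passed), and the 5 most like Myc by each measure; the text names only some of the listed genes, picked for brevity with their values known. Protein and mature microRNA levels were not analysed here. Gene positions and exon lengths are from GENCODE M21 (GRCm38).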

Additional observations from a re-analysis of the deposited data

Results flagged for a closer look

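Of 56 groups of 4 libraries checked among the network genes, 1 held a library far from the others. Mxd3 in wild-type MSC library D was at 180 normalized counts, against 90.6 to 103 in A, B and C, and the gap took up 0.866 of the group's range, above the limit for 4 values at the 95% level. Chance alone flags about 1 in 20 such groups.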

How the results depend on the processing

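Of 1322 values of single genes under other settings, 1250 kept their direction and side of the threshold, 28 gained and 22 lost a call, and 22 changed sign. Of 1624 values with 1 library left out, the counts were 1455, 23, 111 and 35. The cause of these changes was not tested.

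The genes passing in MSC libraries between genotypes were 159, but 1180 by DESeq2, 2246 with all 16 libraries in 1 fit, 0 without mice G and H, and 0 to 2261 with 1 library left out. Of the 10 network genes, 1 passed there, but 0 without G and H and 0 to 2 with 1 library left out. In OB libraries 4 genes passed, but 16 after quantile normalization, 191 by DESeq2, 88 without mice E and F, 24 with all 16 libraries in 1 fit, and 3 to 108 with 1 left out. For the difference of genotype effects 2 passed, but 0 with a pseudocount of 5, 4 without a filter, 1 with a filter of 50, 1 by edgeR, 142 by DESeq2, 0 without E and F, and 0 to 571 with 1 left out, when 0 to 1 of the 10 passed.

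Values close to 0 changed sign. In MSC libraries between genotypes these were Mycn (0.026) and Mlx (0.0015) after quantile normalization, Mxd4 by edgeR (0.025) and DESeq2 (0.032), and Mxd4 (0.099) and Mlx (0.026) without G and H. In OB libraries they were Mxd3 after quantile normalization (-0.0073), Mxd1 (0.0010) and Mnt (0.0085) by edgeR, Mnt by DESeq2 (0.0013), and Mxd4 (-0.093), Mnt (0.066), Mga (-0.016) and Cdk9 (0.0075) without E and F. Mycbp2 was at 0.050 between fractions of deficient mice after quantile normalization. For the difference of effects they were Mxd1 after quantile normalization (0.027), by edgeR (0.047), by DESeq2 (0.042) and without G and H (0.10), Mycn (0.25) and Mxd4 (-0.020) without G and H, and Mxd4 without E and F (-0.066).

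With 1 library left out, the difference between genotypes in MSC libraries ranged from -0.35 to 0.072 for Mycn, -0.20 to 0.15 for Mxd1, -0.19 to 0.091 for Mxd4 and -0.12 to 0.029 for Mlx. In OB libraries it ranged from -0.096 to 0.082 for Mxd3, -0.069 to 0.0095 for Mxd1, -0.038 to 0.14 for Mxd4, -0.0081 to 0.055 for Mxi1 and -0.067 to 0.025 for Mnt. Between fractions it ranged from -0.065 to 0.074 for Mxi1 in wild-type mice, and from -0.090 to 0.21 for Max and -0.046 to 0.14 for Mga in deficient mice. The difference of effects ranged from -0.17 to 0.17 for Mxd1, -0.31 to 1.81 for Mycl and -0.012 to 0.27 for Mxd4.

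With the mouse as a replicate block, 6 of the 9 network genes passed between fractions in wild-type mice, 6 in deficient mice and 0 of 10 for the difference of effects, where 3 genes passed in all. The block changed no other call of the 13 network genes than those of Mxi1, Mlxip and Mlxipl given in the report. Quantile normalization moved the median of all genes between fractions from 0.01 to 0.17 in wild-type and from -0.02 to 0.10 in deficient mice. There Max (0.32) and Mxd3 (0.65) passed as higher in wild-type and Mnt (0.47) in deficient OB libraries. Leaving 1 library out lowers the number of libraries per group to 3, and without G and H or E and F it is 2. Depth limits Mycl in OB libraries and Mlxipl in wild-type OB libraries, which hold 0 to 17 and 4 to 12 recovered reads.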
